A study of Mus musculus with 22 samples.

Results

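The 10 genes described here are Nfe2l2, which encodes the transcription factor NRF2, and 9 genes that NRF2 is known to induce: Nqo1, Hmox1, Gclc, Gclm, Txnrd1, Srxn1, Slc7a11, Gsr and Prdx1. They were chosen by name, with earlier results of these data known. They were found by Ensembl gene identifier among the 34585 entries of the deposited count tables, and all 10 were measured in all 22 libraries. Poly(A) RNA was sequenced from frozen thymus, cerebrum and cerebellum of C57BL/6 mice of 2 genotypes. Tol mice carried in all 3 organs a transgene in which the ubiquitous CAG promoter drives a shuffled reading frame assembled from pieces of fluorescent proteins, luciferase and Cre, inserted 3′ of Col1a1 in a C57BL/6J embryonic stem cell line, and WT mice were their littermates without it. There were 4 Tol and 4 WT libraries of thymus, 4 and 4 of cerebrum, and 2 Tol and 4 WT of cerebellum. The labels give no treatment for either genotype. All Tol mice carry 1 targeted insertion in the heterozygous state, the labels give no age or sex per animal, and they do not say which organs came from the same mouse. The study describes the expression data of the organs as drawn from 4 Tol and 4 WT mice, whereas cerebellum has 2 Tol libraries. The labels do not name the mouse of each library, so that p-values measure the spread between libraries.

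NRF2 is made continuously and, in unstressed cells, is captured by KEAP1, an adaptor of a CUL3 ubiquitin ligase, and degraded. Oxidants and electrophiles modify cysteines of KEAP1, NRF2 accumulates, pairs with a small MAF protein and binds antioxidant response elements, while BACH1 competes for the same elements. The induced genes make and recycle glutathione and thioredoxin, reduce quinones, degrade haem and remove peroxides. In brain, much of this programme is known to run in glia and meningeal cells rather than in neurons, and dividing thymocytes need the thioredoxin system to make deoxynucleotides.

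The antioxidant response element was looked for in RefSeq promoter windows of 300 bases, 250 before and 50 after each annotated start on GRCm38.p6. RefSeq windows were matched by symbol for 7 of the 10 genes, Nfe2l2, Nqo1, Gclm, Txnrd1, Srxn1, Slc7a11 and Prdx1, and those of Hmox1, Gclc and Gsr were not analysed here. The core searched for was TGACNNNGC on both strands, and it was present for 5 genes, which are printed so that the cores of the regulator and of its targets can be compared. Each is written 5′ to 3′ on the strand that carries the core, with the core in capitals and 10 bases on each side.
Nfe2l2 (chr2:75704885-75704913, minus strand): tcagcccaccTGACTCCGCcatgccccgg
Gclm (chr3:122245413-122245441, minus strand): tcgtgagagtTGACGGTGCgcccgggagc
Txnrd1 (chr10:82859104-82859132, minus strand): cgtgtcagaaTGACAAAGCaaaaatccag
Srxn1 (chr2:152105542-152105570, minus strand): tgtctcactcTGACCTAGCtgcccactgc
Prdx1 (chr4:116685456-116685484, minus strand): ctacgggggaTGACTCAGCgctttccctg

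In Nfe2l2 the core lay 240 to 232 bases before the start and read along the gene, and in the other 4 genes it read against it. For Gclm it lay 134 to 126 bases before the start, for Prdx1 133 to 125 and for Txnrd1 92 to 84, at 1 of 3 annotated Txnrd1 starts. The Srxn1 core lay inside the transcribed part, at bases 29 to 37 of the transcript. Among the 5 printed, that of Prdx1 alone also contains TGACTCA, the letters of an AP-1 site. No core lay in the windows of Nqo1 and Slc7a11, which says only that these letters are not within these 300 bases. Over all genes with a window, 13.99% of 27025 symbols held the core, and 12.4% of 32851 windows did.

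Library totals ran from 14543698 to 34776973 counts, and the lowest count of any of the 10 genes in any library was 35, for Hmox1. Levels are given as CPM (counts per 1000000 after trimmed-mean, TMM, scaling of the 22 libraries together), in the order of replicates 1 to 4, and differences as log2 values with the standard error of the edgeR quasi-likelihood fit. An adjusted p below 0.05, by Benjamini-Hochberg over all genes tested in that comparison, counts as a difference. Counts of the transgene were 448 to 4628 in the Tol libraries and 0 to 2 in the WT libraries. Thymocyte markers summed to 8088 to 11177 CPM in thymus and to at most 45.3 in brain, and forebrain markers to 4135 to 5279.9 CPM in cerebrum. One library went against its label. In the library labelled cerebellum Tol 2, the 8 cerebellar markers summed to 285 CPM, against 2941 to 7350 in the other 5 cerebellum libraries. Its Gabra6 level, a marker of cerebellar granule cells, was 12.8 CPM, against 332 to 798, and its Pcp2 level, a marker of Purkinje cells, was 10.6 CPM, against 115 to 285. The comparison of Tol with WT cerebellum is therefore given with and without it. In addition, choroid plexus markers summed to 1370.1 CPM in cerebellum WT 2 and 4867 in cerebellum WT 4, against 22.9 to 49.1 in the other 4, and oligodendrocyte markers to 17597 CPM in cerebellum WT 2, against 4786 to 9602. Forebrain markers summed to 607 CPM in the library labelled cerebellum Tol 2, 317 in cerebellum WT 1 and 129 in cerebellum Tol 1, against at most 124 in the other WT cerebella.

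**Figure D1:**
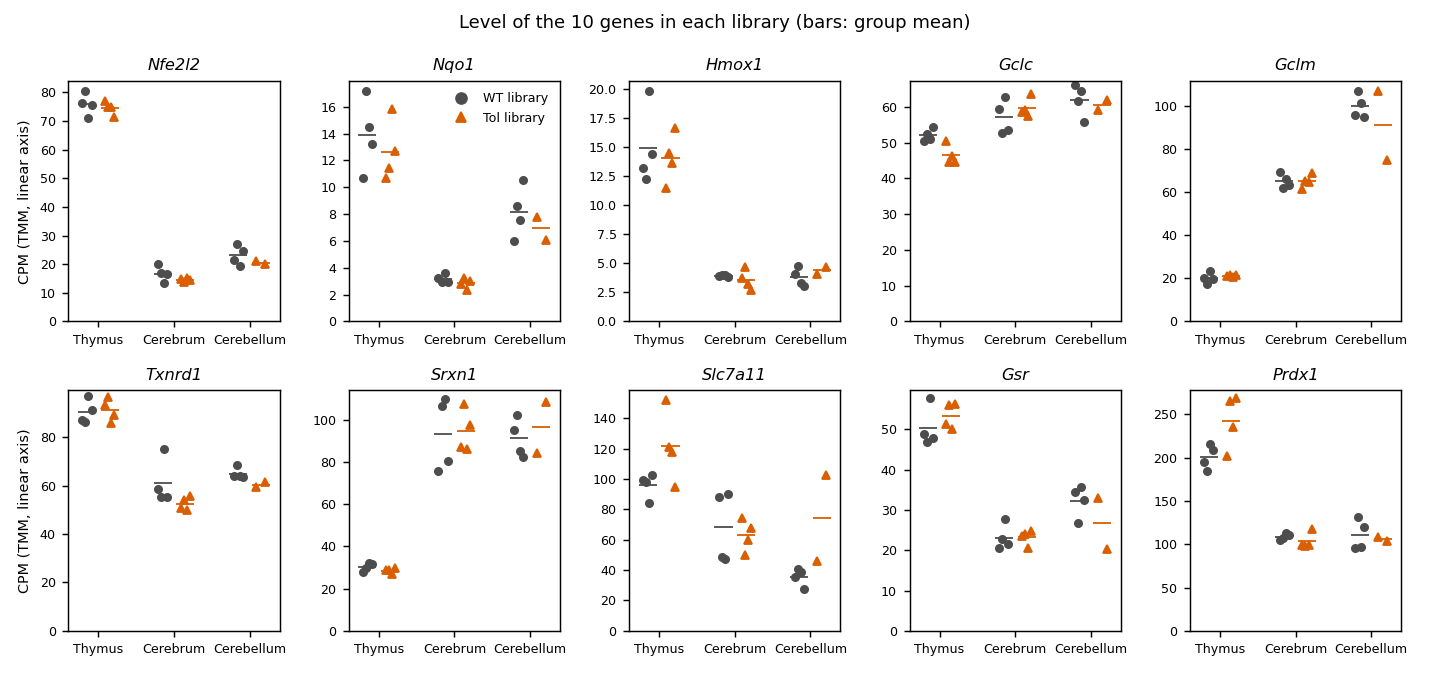
Level of each of the 10 genes in each library, in CPM on a linear axis from 0, by organ, with WT libraries as circles, Tol libraries as triangles and the group mean as a bar. Nfe2l2, Nqo1, Hmox1, Txnrd1, Gsr and Prdx1 were highest in the WT thymus, Gclm and Srxn1 were lowest there, and the WT and Tol points overlapped in every organ except for Slc7a11 and Txnrd1 in the cerebellum.

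Nfe2l2, Nqo1, Hmox1, Gsr, Txnrd1, Slc7a11 and Prdx1 were higher in WT thymus than in either brain region, Gclm and Srxn1 were higher in brain, and Gclc was nearly level in WT mice. In WT mice, 7 of the 10 genes passed the threshold as higher in thymus than in cerebrum and 2 were lower, where 43.4% of all 17413 genes tested were higher and 40.9% lower. Against cerebellum, 7 were higher in thymus and 3 lower, over a background of 41.8% and 41.7%. Between the brain regions, 1 gene was higher in cerebrum and 4 were higher in cerebellum, over a background of 24.6% and 26.4%. Since most genes differed between thymus and brain, the number of members that did so is no result about them, and the values below show which lay where. The same shares over all genes are the background for the counts of each pathway list between WT organs given below. The median log2 difference of the 10 genes was 0.75 for thymus minus cerebrum, beside 0.06 over all genes. In bulk tissue, fewer cells of a type and less RNA per cell cannot be told apart.

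**Figure D2:**
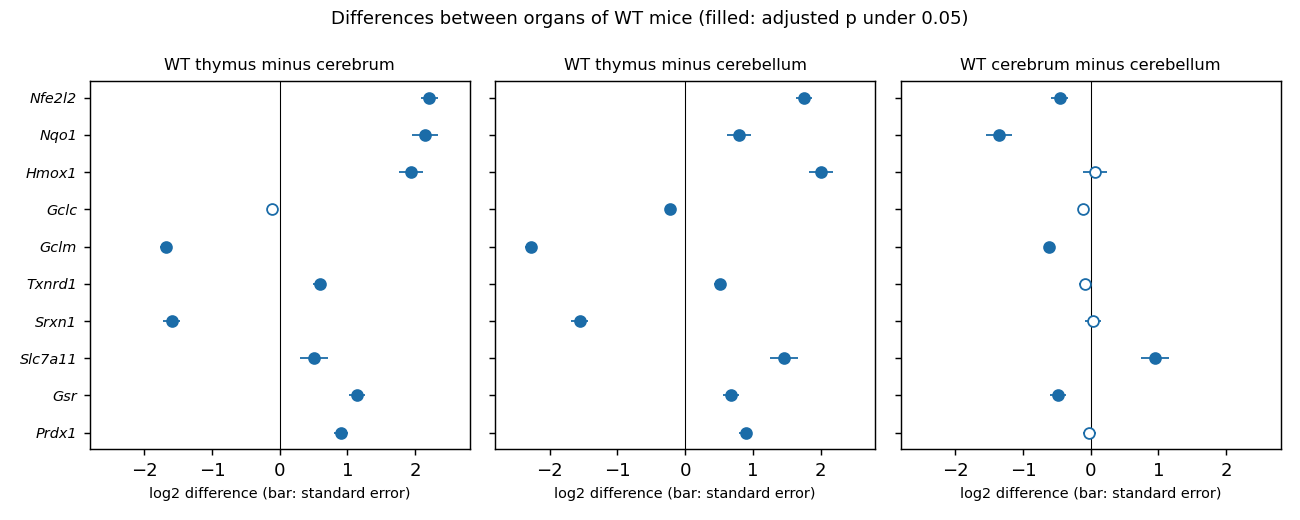
Log2 differences between organs of WT mice for the 10 genes, with the standard error as a bar and filled points where the adjusted p was below 0.05. Gclm and Srxn1 lay to the left of 0 in both comparisons of thymus with brain, at -1.67 and -1.59 against cerebrum, while Nfe2l2, Nqo1 and Hmox1 lay near 2 against cerebrum.

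Nfe2l2 itself (ENSMUSG00000015839, chr2:75675513-75704641, minus strand) was a thymus-high gene. In thymus it was at 76.3, 80.6, 71.2 and 75.7 CPM in the WT libraries and 77.1, 74.8, 75.03 and 71.3 in the Tol libraries. In cerebrum the values were 19.9, 16.8, 13.4 and 16.7 CPM in the WT libraries and 14.9, 13.7, 15.1 and 14.4 in the Tol libraries, and in cerebellum 21.3, 27.02, 19.4 and 24.5 CPM in the WT libraries and 20.9 and 20.1 in the Tol libraries. Every thymus library lay above every brain library, with no overlap. The difference was 2.21 ± 0.13 for WT thymus minus cerebrum (adjusted p = 2.7e-09) and 1.75 ± 0.12 for thymus minus cerebellum (adjusted p = 2.22e-08). Between the brain regions it was -0.45 ± 0.12 (cerebrum minus cerebellum, adjusted p = 0.00851), with overlapping WT ranges. That last call was kept in each of 12 fits that left out 1 library, with adjusted p up to 0.0242. It was lost without cerebrum WT 3, highest of the cerebra in thymocyte markers at 45.3 CPM, and cerebellum WT 2 and WT 4, high in choroid plexus markers, where the value was -0.18 (adjusted p = 0.16). That set, also left out below, was chosen after seeing the data. It holds the WT cerebrum lowest in Nfe2l2 and the WT cerebella highest in it, so leaving it out had to shrink the difference.

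Of 13 regulators of NRF2 listed, 5 were higher and 6 lower in WT thymus than in cerebrum, where 43.4% and 40.9% of all genes were. These counts are near that background and are no result about the regulators. Bach1, the repressor that competes with NRF2, differed most, with 208, 199, 199 and 221 CPM in WT thymus and 20.5, 18.2, 17.1 and 18.9 in WT cerebrum, a difference of 3.49 ± 0.07 (adjusted p = 3.35e-13). Btrc, whose product directs NRF2 to a second ubiquitin ligase, differed most in the other direction, at -1.83 ± 0.07 (adjusted p = 4.02e-11). Against cerebellum 6 regulators were higher and 6 lower in thymus, with Bach1 again highest at 3.08 ± 0.07 and the NRF2 partner Mafg lowest at -1.34 ± 0.07 (adjusted p = 6.82e-13 and 1.22e-09). Between the brain regions, 6 were higher in cerebrum and 2 in cerebellum, at most 0.54 ± 0.07 for Sqstm1, whose product binds KEAP1 (adjusted p = 7.19e-05), and -0.63 ± 0.16 for Bach2, a relative of Bach1 (adjusted p = 0.00501).

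Nqo1 (ENSMUSG00000003849, chr8:107388225-107403206, minus strand), which reduces quinones by 2 electrons and is widely used as a reporter of NRF2 activity, separated all 3 organs in the WT libraries. In thymus it was at 10.7, 17.2, 14.5 and 13.2 CPM in the WT libraries and 10.7, 11.4, 15.8 and 12.7 in the Tol libraries. In cerebrum the levels were 3.25, 2.96, 3.60 and 2.94 CPM in the WT libraries and 2.81, 3.21, 2.37 and 3.04 in the Tol libraries. Cerebellum lay between them, at 6.000, 8.63, 7.57 and 10.5 CPM in the WT libraries and 7.79 and 6.09 in the Tol libraries. No WT library of one organ overlapped one of another, although thymus WT 1, at 10.7 CPM, lay close to cerebellum WT 4, at 10.5. The differences were 2.14 ± 0.19 for thymus minus cerebrum, 0.80 ± 0.18 for thymus minus cerebellum and -1.35 ± 0.19 for cerebrum minus cerebellum (adjusted p = 2.9e-07, 0.00117 and 0.000101).

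Hmox1 (ENSMUSG00000005413, chr8:75093621-75100589, plus strand) encodes the inducible haem oxygenase, which opens the haem ring and releases iron, and is known to be high in macrophages that clear red cells. In thymus it was at 13.2, 12.2, 19.9 and 14.4 CPM in the WT libraries and 11.5, 14.5, 13.6 and 16.6 in the Tol libraries. In cerebrum the values were 3.96, 3.99, 4.02 and 3.84 CPM in the WT libraries and 3.74, 4.65, 3.21 and 2.73 in the Tol libraries, and in cerebellum 4.11, 4.75, 3.28 and 3.05 CPM in the WT libraries and 4.12 and 4.68 in the Tol libraries. Thymus was above brain in every library, by 1.94 ± 0.18 against cerebrum and 2.01 ± 0.18 against cerebellum in WT mice (adjusted p = 3.52e-07 and 2.38e-07), while the brain regions differed by 0.07 ± 0.18 (adjusted p = 0.793). All 10 markers of macrophages and microglia were counted in each organ, and they summed to 397 to 576 CPM in thymus, 202 to 267 in cerebrum and 82.1 to 158 in cerebellum. That order matches Hmox1 for thymus against brain but not between the brain regions, where the sums did not overlap and the Hmox1 ranges did. The part of these cells in the Hmox1 difference was not tested.

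Of the other haem and iron genes, 3 of 11 were higher and 6 lower in WT thymus than in cerebrum, and 3 and 6 against cerebellum. Slc40a1, the iron exporter ferroportin, was highest in thymus by 1.93 ± 0.09 and 2.31 ± 0.09 (adjusted p = 3.73e-10 and 7.38e-11). Abcb6, a porphyrin transporter, was lowest against cerebrum, at -1.72 ± 0.11, and Fech, which inserts iron into protoporphyrin, lowest against cerebellum, at -1.47 ± 0.06 (adjusted p = 6.46e-09 and 8.54e-11). Abcb6 was also the larger of 2 iron and haem genes that were higher in cerebrum than in cerebellum, by 0.41 ± 0.10 (adjusted p = 0.00531), and none was lower. Among 17 detoxification genes, the group to which Nqo1 belongs by function, 8 were higher and 2 lower in thymus than in cerebrum, 9 and 2 against cerebellum, and 6 and 4 for cerebrum against cerebellum. Ptgr1, a reductase of lipid aldehydes and prostaglandins, led in thymus in both comparisons, by 3.43 ± 0.24 and 2.98 ± 0.22 (adjusted p = 1.85e-08 and 4.59e-08). Nqo2, the relative of Nqo1, was lower in thymus than in cerebellum, at -0.58 ± 0.07, and lower in cerebrum than in cerebellum, at -1.09 ± 0.07 (adjusted p = 6.91e-06 and 3.32e-07), whereas the carbonyl reductase gene Cbr3 was the lowest against cerebrum, at -1.08 ± 0.28 (adjusted p = 0.00264). The glucuronosyltransferase gene Ugt1a6a, at 3.47, 2.70, 1.86 and 3.78 CPM in WT cerebrum and 0.0839, 0.523, 0.154 and 1.13 in WT cerebellum, led in cerebrum over cerebellum by 2.65 ± 0.55 (adjusted p = 0.00149).

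In the glutathione branch the members were distributed in opposite ways. Gclc (ENSMUSG00000032350, chr9:77754535-77794485, plus strand) and Gclm (ENSMUSG00000028124, chr3:122245557-122270732, plus strand) encode the catalytic and the modifier subunit of glutamate-cysteine ligase, the first and rate-limiting enzyme of glutathione synthesis, and the modifier raises the affinity of the catalytic subunit for glutamate and relieves its inhibition by glutathione. Gclc was nearly level across organs in the WT libraries, whereas in the Tol libraries every thymus value lay below every brain value. For thymus it was at 50.4, 52.4, 50.9 and 54.4 CPM in the WT libraries and 50.4, 44.7, 46.4 and 44.5 in the Tol libraries. For cerebrum the Gclc levels were 59.4, 52.7, 62.9 and 53.6 CPM in the WT libraries and 58.6, 59.1, 57.6 and 63.7 in the Tol libraries, and for cerebellum 66.2, 61.6, 64.5 and 55.8 CPM in the WT libraries and 59.02 and 61.8 in the Tol libraries. Its WT ranges overlapped between neighbouring organs. The difference was -0.11 ± 0.07 for thymus minus cerebrum (adjusted p = 0.172) and -0.11 ± 0.07 for cerebrum minus cerebellum (adjusted p = 0.23). For thymus minus cerebellum it passed the threshold at -0.22 ± 0.07 (adjusted p = 0.013), and lost it with DESeq2 size factors in place of TMM, at -0.17 (adjusted p = 0.0515), and without thymus WT 1, 2 or 3 or cerebellum WT 3, at -0.17 to -0.19 (adjusted p = 0.0583 to 0.0822). Without cerebrum WT 3, cerebellum WT 2 and cerebellum WT 4, Gclc was lower in cerebrum than in cerebellum, at -0.23 (adjusted p = 0.0222). With Tol libraries in place of WT, Gclc passed as lower in thymus, at -0.36 against cerebrum and -0.38 against cerebellum.

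Gclm was lowest in thymus, higher in cerebrum and highest in cerebellum. It was at 20.3, 17.2, 23.4 and 19.6 CPM in the WT libraries and 21.2, 21.5, 20.7 and 21.4 in the Tol libraries for thymus. Cerebrum had 69.3, 61.8, 66.2 and 63.3 CPM in the WT libraries and 61.3, 65.2, 64.95 and 69.1 in the Tol libraries, and cerebellum had 96.04, 107, 101 and 94.99 CPM in the WT libraries and 107 and 75.1 in the Tol libraries. The 3 organs did not overlap in any library of either genotype, the lowest cerebellar value being that of the library labelled cerebellum Tol 2. In WT mice the difference was -1.67 ± 0.09 for thymus minus cerebrum, -2.28 ± 0.09 for thymus minus cerebellum and -0.61 ± 0.08 for cerebrum minus cerebellum (adjusted p = 1.11e-09, 6.54e-11 and 7.4e-05). Some reads of Gclm can also have come from other genes, since 3.16% of the 65-base windows of its transcripts were identical to a window of another listed gene, most of them to Ppia through an overlapping pseudogene.

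The ratio of Gclm to Gclc counts within a library needs no scaling between libraries. In WT thymus it was 0.404, 0.329, 0.459 and 0.360, and in Tol thymus 0.421, 0.481, 0.447 and 0.481. In WT cerebrum the ratio was 1.17, 1.17, 1.05 and 1.18, in Tol cerebrum 1.05, 1.10, 1.13 and 1.08, and in WT cerebellum 1.45, 1.74, 1.57 and 1.70. The Tol cerebella had 1.81 and, in the library labelled cerebellum Tol 2, 1.21. Every cerebrum library was thus above every thymus library, and every cerebellum library above every cerebrum library. Divided by the summed exon lengths of 6291 and 3766 bases, the ratio ran from 0.197 to 0.288 in thymus and from 0.727 to 1.09 in cerebellum, so that per length the modifier transcript was below the catalytic one in every thymus library and close to it in cerebellum.

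**Figure D3:**
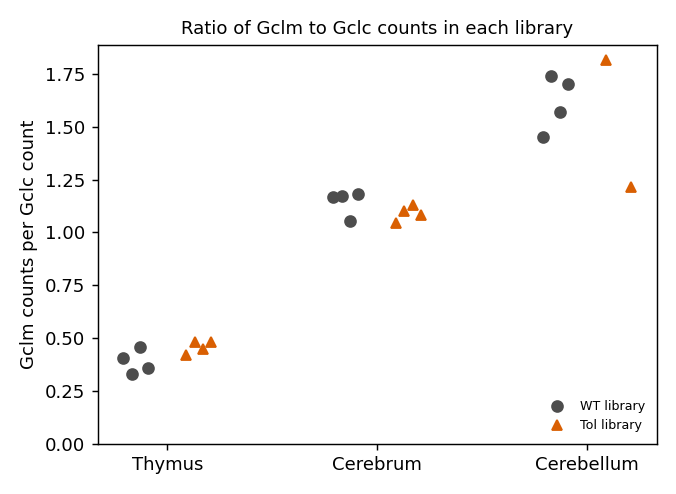
Counts of Gclm per count of Gclc in each of the 22 libraries, on a linear axis from 0, by organ, with WT as circles and Tol as triangles. Thymus libraries lay between 0.329 and 0.481, cerebrum libraries between 1.05 and 1.18 and cerebellum libraries between 1.21 and 1.81.

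Gsr (ENSMUSG00000031584, chr8:33652523-33698163, plus strand), the NADPH-dependent reductase that returns oxidised glutathione to the reduced form, was higher in thymus. It was at 48.9, 46.9, 57.8 and 47.9 CPM in the WT libraries and 51.3, 55.97, 50.05 and 56.2 in the Tol libraries in that organ. In cerebrum Gsr was at 20.4, 22.8, 27.7 and 21.5 CPM in the WT libraries and 23.4, 24.1, 20.5 and 24.7 in the Tol libraries, and in cerebellum at 34.4, 26.7, 35.7 and 32.5 CPM in the WT libraries and 32.9 and 20.4 in the Tol libraries. Thymus lay above every brain library, and among the cerebella the 2 lowest values belonged to the library labelled cerebellum Tol 2 and to WT 2. In WT mice the differences were 1.15 ± 0.12 for thymus minus cerebrum, 0.67 ± 0.12 for thymus minus cerebellum and -0.48 ± 0.12 for cerebrum minus cerebellum (adjusted p = 1.09e-06, 0.000137 and 0.005). Gsr was therefore ordered thymus, cerebellum, cerebrum, whereas Gclm was ordered cerebellum, cerebrum, thymus.

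The wider glutathione list leaned the other way from Gsr. In WT thymus 4 of 23 glutathione genes were higher and 17 lower than in cerebrum, with a median log2 difference of -1.24 beside 0.06 over all genes, and 4 were higher and 17 lower than in cerebellum. The glutathione transferase gene Gstm5 was at 1.55, 1.06, 1.03 and 1.05 CPM in WT thymus, 114, 123, 115 and 111 in cerebrum and 60.8, 83.8, 47.1 and 47.04 in cerebellum, the largest difference of the list at -6.60 ± 0.22 and -5.64 ± 0.22 (adjusted p = 1.89e-11 and 6.98e-11). The secreted peroxidase gene Gpx3 was the largest in the other direction, at 3.24 ± 0.50 and 2.42 ± 0.47 (adjusted p = 5.19e-05 and 0.000388). Between the brain regions 7 glutathione genes were higher in cerebrum, led by Gstm5 at 0.96 ± 0.16, and 5 in cerebellum, led by the microsomal transferase gene Mgst1 at -1.04 ± 0.15 (adjusted p = 0.000347 and 0.000136).

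NADPH feeds Gsr, Txnrd1 and Nqo1. Of 11 NADPH genes, 8 were higher in WT thymus and 2 lower than in cerebrum, and 8 higher and 3 lower than in cerebellum. Nnt, the mitochondrial transhydrogenase, was the largest in thymus in both, at 2.03 ± 0.52 and 4.15 ± 0.59 (adjusted p = 0.00271 and 2.29e-05). Its level varied within a group, with 15.7, 14.3, 4.55 and 13.3 CPM in WT thymus and 3.79, 0.707, 5.40 and 1.98 in WT cerebrum. The deposited counts hold 2 entries with the symbol Nnt. All Nnt values given here are of 1 entry, ENSMUSG00000025453, and how reads were divided between the entries was not tested. The malic enzyme genes Me3 and Me1 were the lowest in thymus, Me3 at -1.27 ± 0.13 against cerebrum and Me1 at -0.92 ± 0.24 against cerebellum (adjusted p = 8.83e-07 and 0.00338). Between the brain regions 3 were higher in cerebrum, led by Nnt at 2.12 ± 0.59, and 2 in cerebellum, led by G6pdx, the first enzyme of the pentose phosphate pathway, at -1.05 ± 0.12 (adjusted p = 0.00946 and 1.52e-05).

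Slc7a11 (ENSMUSG00000027737, chr3:49892526-50443614, minus strand) encodes the light chain of the cystine-glutamate exchanger, which supplies cysteine for glutathione. Its level varied widely among the libraries of each brain region. In thymus it was at 99.1, 98.2, 83.8 and 102 CPM in the WT libraries and 152, 121, 118 and 94.9 in the Tol libraries. The cerebrum values were 88.03, 48.4, 47.3 and 89.95 CPM in the WT libraries and 74.5, 49.8, 59.6 and 67.8 in the Tol libraries, and the cerebellum values 35.4, 41.003, 38.9 and 27.6 CPM in the WT libraries and 46.2 and 103 in the Tol libraries. WT cerebra 1 and 4 were near 89 CPM and WT cerebra 2 and 3 near 48, while 5 of the 6 cerebella lay below every cerebrum library and the library labelled cerebellum Tol 2 lay above all of them. In WT mice thymus was above cerebellum by 1.46 ± 0.21 and cerebrum above cerebellum by 0.95 ± 0.21 (adjusted p = 3.1e-05 and 0.00258). Thymus minus cerebrum was 0.51 ± 0.21 (adjusted p = 0.0372), and without cerebrum WT 3, cerebellum WT 2 and cerebellum WT 4 it was 0.35 (adjusted p = 0.0956). It also lost the call without thymus WT 1, 2 or 4 or cerebrum WT 2 or 3, at 0.36 to 0.51 (adjusted p = 0.0637 to 0.114).

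Slc7a11 is known to be strongly expressed in the meninges, so its level was set beside 8 fibroblast and meningeal markers, all of which were counted in every brain library. In cerebrum these summed to 171, 82.6, 90.5 and 164 CPM in WT 1 to 4 and 136, 126, 106 and 143 in Tol 1 to 4. The libraries with the highest and second highest Slc7a11, WT 4 and WT 1, had the 2 highest sums, and WT 2 and WT 3, with the lowest Slc7a11, had the 2 lowest sums. In cerebellum the sums were 139, 159.9, 123 and 122 in WT 1 to 4, 184 in Tol 1 and 363 in the library labelled cerebellum Tol 2, which also had the highest Slc7a11. The genes of the list were not alike: in the cerebra WT 1 and WT 4 were highest in Dcn, at 37.3 and 42.01 CPM, and in Pdgfra, at 81.4 and 88.2 CPM, which made up most of their sums and of which Pdgfra also marks oligodendrocyte precursors. Col1a1 and Col1a2 were instead highest in cerebrum Tol 2, at 21.1 and 24.2 CPM, where Slc7a11 was at 49.8, and were at 7.91 and 11.7 CPM in WT 4. The part of meningeal cells in these levels was not tested.

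**Figure D4:**
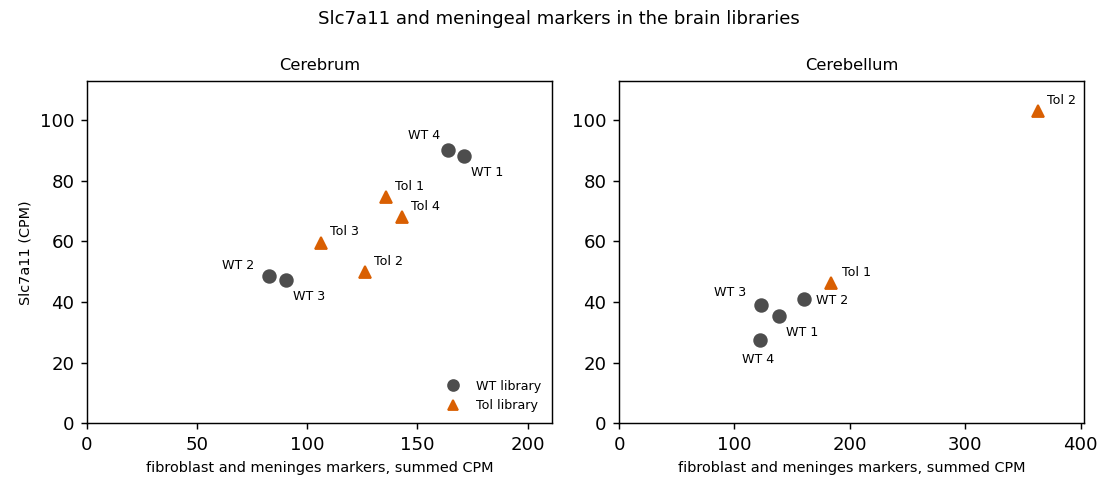
Slc7a11 in CPM against the summed CPM of 8 fibroblast and meningeal markers, 1 point per library, for cerebrum and cerebellum, with both axes linear from 0. The cerebrum points run from WT 3 at 47.3 and WT 2 at 48.4 to WT 4 at 90.0, and the library labelled cerebellum Tol 2 lies apart at 103.

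In the thioredoxin branch, Txnrd1 (ENSMUSG00000020250, chr10:82833951-82897712, plus strand), the cytosolic selenoenzyme that reduces thioredoxin with NADPH, was higher in thymus. Its thymus levels were 86.96, 86.4, 96.99 and 91.4 CPM in the WT libraries and 93.5, 96.7, 86.1 and 89.1 in the Tol libraries. Cerebrum was at 58.6, 55.5, 75.1 and 55.4 CPM in the WT libraries and 50.7, 53.97, 49.8 and 55.8 in the Tol libraries, and cerebellum at 63.8, 68.6, 63.9 and 63.6 CPM in the WT libraries and 59.4 and 61.5 in the Tol libraries. The lowest thymus library was at 86.1 CPM and the highest brain library, cerebrum WT 3, at 75.1. The difference was 0.59 ± 0.09 against cerebrum and 0.51 ± 0.09 against cerebellum (adjusted p = 5.48e-05 and 0.000187), and -0.08 ± 0.09 between the brain regions (adjusted p = 0.509). Without cerebrum WT 3 that last value was -0.19 and passed (adjusted p = 0.0257).

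Srxn1 (ENSMUSG00000032802, chr2:152105516-152111376, plus strand), sulfiredoxin, repairs over-oxidised peroxiredoxins and was, with Gclm, a brain-high member. Thymus levels were 27.9, 29.8, 32.1 and 31.4 CPM in the WT libraries and 28.6, 28.6, 26.9 and 29.8 in the Tol libraries. Cerebrum levels were 75.6, 107, 109.7 and 80.2 CPM in the WT libraries and 87.2, 108, 86.1 and 97.3 in the Tol libraries, and cerebellum levels 95.2, 102, 84.9 and 82.5 CPM in the WT libraries and 84.4 and 108 in the Tol libraries. Every brain library had more than 75 CPM and no thymus library more than 32.1. The difference was -1.59 ± 0.12 for thymus minus cerebrum and -1.56 ± 0.12 for thymus minus cerebellum, and the brain regions differed by 0.04 ± 0.12 (adjusted p = 6.74e-08, 8.81e-08 and 0.827). Among the cerebra, WT 1 and WT 4, the highest in Slc7a11, were the lowest in Srxn1, and WT 2 and WT 3, the lowest in Slc7a11, were among the 3 highest in Srxn1.

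Prdx1 (ENSMUSG00000028691, chr4:116685544-116700822, plus strand), the abundant cytosolic peroxiredoxin that Srxn1 repairs, was higher in thymus. It was at 195, 185, 216 and 209 CPM in the WT libraries and 202, 265, 235 and 269 in the Tol libraries for thymus. In cerebrum there were 105, 107, 113 and 111 CPM in the WT libraries and 99.7, 97.9, 98.7 and 118 in the Tol libraries, and in cerebellum 95.2, 131, 97.1 and 120.4 CPM in the WT libraries and 109 and 104 in the Tol libraries. Thymus lay above brain in every library, by 0.91 ± 0.10 and 0.89 ± 0.10 in WT mice (adjusted p = 2.23e-06 and 2.79e-06), and the brain regions differed by -0.02 ± 0.10 (adjusted p = 0.905). Of its 65-base windows 5.42% also occurred in 2 other listed genes, mostly in Gm21399, so a small part of its counts may be shared.

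The other thioredoxin genes were divided, with 6 of 15 higher and 7 lower in WT thymus than in cerebrum, 4 and 8 against cerebellum, and 2 and 4 for cerebrum against cerebellum. Txnip, the inhibitor of thioredoxin, was the largest in thymus, with 469, 427, 387 and 470.2 CPM there and 24.1, 22.4, 21.8 and 18.998 in WT cerebrum, a difference of 4.35 ± 0.10 (adjusted p = 1.14e-12), and of 4.13 ± 0.10 against cerebellum (adjusted p = 1.63e-12). Prdx5, a peroxiredoxin found in mitochondria and peroxisomes, was the lowest in thymus, at -1.04 ± 0.08 and -1.15 ± 0.08 (adjusted p = 3.04e-08 and 1.17e-08). Prdx6 led in cerebrum over cerebellum at 0.41 ± 0.10 and Txnrd3, a testis-rich reductase, in cerebellum over cerebrum at -0.66 ± 0.17 (adjusted p = 0.00345 and 0.00547). Of 5 superoxide and hydrogen peroxide genes, 2 were higher and 2 lower in thymus than in cerebrum, 2 and 1 against cerebellum, and 1 and 1 between the brain regions. Catalase, Cat, was highest in thymus by 1.32 ± 0.12 and 0.91 ± 0.12 (adjusted p = 2.78e-07 and 9.68e-06) and lower in cerebrum than in cerebellum, at -0.41 ± 0.12 (adjusted p = 0.0115). The mitochondrial dismutase gene Sod2 was lowest in thymus, at -2.20 ± 0.08 and -2.09 ± 0.08 (adjusted p = 5.63e-11 and 9.14e-11), and the cytosolic Sod1 was higher in cerebrum than in cerebellum by 0.35 ± 0.09 (adjusted p = 0.00777).

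Levels of different genes can be compared only per length, here as CPM per kilobase of summed exon length. On that scale Prdx1 was the highest member in each WT organ, at 66.1 ± 4.63 (SD, n = 4) in thymus, 35.8 ± 1.29 in cerebrum and 36.5 ± 5.82 in cerebellum. In thymus its range did not overlap that of the next gene, Nfe2l2, at 20.01 ± 1.01, which in turn overlapped Gsr at 18.3 ± 1.82. In brain the next gene was Srxn1, at 32.99 ± 6.23 in cerebrum and 32.3 ± 3.25 in cerebellum, and its range overlapped that of Prdx1 in both regions. The order then fell in thymus through Gclc, Txnrd1, Srxn1, Nqo1, Hmox1 and Slc7a11 to Gclm, the lowest at 3.20 ± 0.403, and from Srxn1 to Slc7a11 each gene overlapped the next, while Gclm lay apart. In cerebrum the lowest were Hmox1 at 2.26 ± 0.0464 and Nqo1 at 2.05 ± 0.201, and in cerebellum Slc7a11 at 2.57 ± 0.424 and Hmox1 at 2.17 ± 0.445, with overlapping ranges in each pair. The highest member was 20.7 times the lowest in WT thymus, 17.4 times in cerebrum and 16.8 times in cerebellum. The order and the overlaps depend on the length used. The longest transcript has 2294 bases for Prdx1, 2812 for Srxn1 and 3622 for Txnrd1, beside summed lengths of 3043, 2820 and 7086. Per longest transcript, Prdx1 and Srxn1 would not overlap in either WT brain region, and Txnrd1 would lie above Gsr in WT thymus.

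Tol and WT mice were then compared within each organ, which asks whether carrying the transgene went along with a change in oxidative stress genes. None of the 10 genes passed the adjusted threshold in thymus, cerebrum or cerebellum with edgeR, and none did with DESeq2. Over all genes tested with edgeR, 0.0985% passed for thymus, 0% for cerebrum and 0% for cerebellum. At an unadjusted p below 0.05 there were 3 members in thymus, where 24.4% of all genes reached it, none in cerebrum, where 9.66% did, and 1 in cerebellum, where 3.16% did, and DESeq2 gave 3, 0 and 1 members as well. With 10 genes, 1 member more or less shifts a share widely, so these counts are no result about the members. Nfe2l2, Nqo1 and Hmox1, the regulator and its widely used reporters, differed by -0.02 ± 0.05, -0.13 ± 0.15 and -0.09 ± 0.16 in thymus, -0.20 ± 0.11, -0.16 ± 0.15 and -0.13 ± 0.17 in cerebrum, and -0.14 ± 0.16, -0.21 ± 0.26 and 0.24 ± 0.25 in cerebellum, with adjusted p from 0.622 to 0.958.

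In thymus the 3 members with an unadjusted p below 0.05 were Slc7a11 at 0.34 ± 0.12, Prdx1 at 0.27 ± 0.10 and Gclc at -0.16 ± 0.06 (adjusted p = 0.127, 0.129 and 0.134). Tol and WT values overlapped for each of them, for Gclc by less than 0.1 CPM at 50.4 in both Tol 1 and WT 1, and 11.6% of all genes had no overlap. Thymus Tol 1 was the highest in Slc7a11 and Gclc and the lowest in Prdx1 of the 4 Tol thymuses. Without it, Prdx1 was at 0.36 and Gclc at -0.19 and both passed the threshold (adjusted p = 0.0112 and 0.0266), where 18.2% of all genes then passed, while Slc7a11 was at 0.23 (adjusted p = 0.101). The other 4 members of the 2 branches, Gclm, Gsr, Txnrd1 and Srxn1, differed by 0.08 ± 0.09, 0.09 ± 0.08, 0.02 ± 0.06 and -0.09 ± 0.07, with adjusted p from 0.447 to 0.898.

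Transcript length moved with the thymus difference: across 16219 genes, Spearman's rho between the log2 difference and the summed exon length was -0.34, a description over genes that share the same 8 libraries. Genes higher in Tol had a median exon length of 3266 bases and the others of 5264. Prdx1 has 3043, Gclc 3766 and Slc7a11 13922 bases, against a median of 4132 over all genes, so that Prdx1, short and higher in Tol, lies on the side of the trend, whereas Slc7a11, long and higher, and Gclc, short and lower, do not. Fibroblast markers, all 8 of them counted, summed to 181 to 268 CPM in the Tol thymuses and 243 to 403 in the WT thymuses. The list includes Col1a1, 3′ of which the transgene was inserted, and the sum without it is not given here. The part of length and of these cells in the 3 values was not tested.

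In cerebrum the members lay between -0.22, for Txnrd1 (SE 0.10, adjusted p = 0.539), and 0.07, for Gclc (SE 0.07, adjusted p = 0.813). All 10 overlapped between genotypes, and 6.46% of all genes did not. Cerebrum WT 3 had 75.1 CPM of Txnrd1 against 55.4 to 58.6 in the other WT cerebra, and the Txnrd1 difference was -0.10 without it (adjusted p = 0.608). Slc7a11 and Srxn1, with the widest spread between cerebra, were at -0.12 ± 0.23 and 0.03 ± 0.14. Gclm, Gsr and Prdx1 were at 0.0022 ± 0.06, 0.0041 ± 0.11 and -0.07 ± 0.08, and the adjusted p of these 5 ranged from 0.813 to 0.994.

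In cerebellum only Slc7a11 reached an unadjusted p below 0.05, at 1.09 ± 0.33 (adjusted p = 0.957). The groups did not overlap for Slc7a11, higher in Tol, nor for Txnrd1, lower in Tol at -0.08 ± 0.09 (adjusted p = 0.957), and 10.5% of all genes had no overlap with 2 Tol libraries against 4. Without the library labelled cerebellum Tol 2, Slc7a11 was at 0.37 (SE 0.22, adjusted p = 0.979) and Txnrd1 at -0.13, a fit that leaves 1 Tol library and takes its spread from the WT libraries. Gsr went from -0.26 ± 0.21 to 0.03, Gclm from -0.11 ± 0.15 to 0.10 and Srxn1 from 0.11 ± 0.16 to -0.11, so that these 3 changed sign with that library. With and without that library, Gclc was at -0.01 ± 0.11 and -0.07, Prdx1 at -0.03 ± 0.16 and -0.03, Nfe2l2 at -0.14 ± 0.16 and -0.14, Nqo1 at -0.21 ± 0.26 and -0.07 and Hmox1 at 0.24 ± 0.25 and 0.12.

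**Figure D5:**
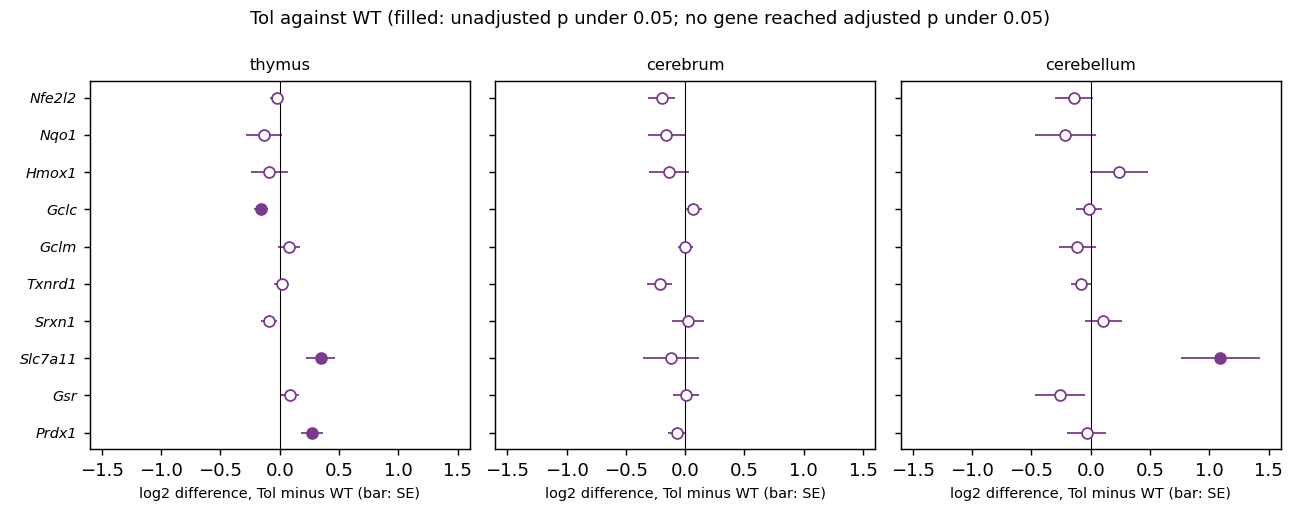
Log2 difference between Tol and WT for the 10 genes in each organ, with the standard error as a bar and filled points where the unadjusted p was below 0.05. No member passed the adjusted threshold, and the point at 1.09 is Slc7a11 in cerebellum, which was 0.37 without the library labelled cerebellum Tol 2.

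Whether the Tol effect differed between thymus and cerebrum was tested in 1 fit over 16 libraries. None of the 10 genes passed with edgeR or DESeq2, where 0.107% of all genes passed with edgeR. Prdx1 and Gclc had an unadjusted p below 0.05, which 16.5% of all genes had. Prdx1 was at -0.35 ± 0.13 (cerebrum minus thymus, adjusted p = 0.186) and Gclc at 0.22 ± 0.10 (adjusted p = 0.26). Without thymus Tol 1, Prdx1 passed at -0.42 (adjusted p = 0.0349), where 6.22% of all genes did. The other 8 lay between -0.47, for Slc7a11, and 0.11, for Srxn1, with adjusted p from 0.352 to 0.983.

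The rest of the pathway gave no call between the genotypes with edgeR. Of 95 further genes, 94 were tested for thymus, 93 for cerebrum and 94 for cerebellum, and none passed the adjusted threshold, nor did any in the difference between the Tol effects. At an unadjusted p below 0.05, 23 were higher and 3 lower in Tol thymus, beside 2165 and 1800 of all 16248 genes (24.4% together). The cerebrum fit gave 2 higher and 8 lower, beside 750 and 756 of 15596 (9.66%). The cerebellum fit gave 4 and 1, beside 324 and 203 of 16662 (3.16%). For the difference of the Tol effects, cerebrum minus thymus, 2 were higher and 31 lower, beside 1181 and 1744 of 17774 (16.5%). The pathway genes thus leaned further than all genes towards higher in Tol thymus and towards lower in the difference. These are not 2 separate observations, since the difference subtracts the Tol effect in the same thymus libraries. Spearman's rho between the log2 difference and exon length was -0.34 for thymus and 0.14 for cerebrum. Neither the lean nor the part of length in it was tested, and the lists were chosen with earlier results of these data known. The cerebellum counts rest on 2 Tol libraries, of which Tol 2 went against its label. Leaving out either leaves 1 Tol library, and counts from such fits are not compared here. DESeq2 called 10 of the 95 higher and 1 lower in Tol thymus, over a background of 7.8% of all genes, 0 and 1 in cerebrum, over 1.18%, none in cerebellum, and 0 and 4 in the difference, over 2.78%. Without thymus Tol 1, edgeR called 28 higher and 2 lower in Tol thymus, in a fit in which 18.2% of all genes were called. Of the lists, that of thioredoxin genes had the most with an unadjusted p below 0.05 in thymus, 8 higher and 1 lower of 15, where 2165 of 16248 genes were higher and 1800 lower at that p, with a median log2 difference of 0.19 beside 0.01 over all genes and a median exon length of 3123 bases beside 4132. The glutathione list, whose median exon length was 1679 bases, had 3 higher and 0 lower of 22 and a median of 0.13.

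By the rule of naming the gene with the lowest p in each list, thymus gave Prdx4, an endoplasmic reticulum peroxiredoxin, at 0.55 ± 0.15, the phospholipid hydroperoxidase gene Gpx4 at 0.33 ± 0.09, Btrc at 0.28 ± 0.07, Me3 at 0.73 ± 0.20, the biliverdin reductase gene Blvra at 0.32 ± 0.10, the esterase gene Esd at 0.29 ± 0.09 and Sod1 at 0.22 ± 0.09. Their adjusted p ran from 0.0841 to 0.154. Me3 was at 41.7, 51.6, 40.6 and 23.6 CPM in the Tol and 19.2, 24.9, 27.3 and 23.8 in the WT thymuses, so that 1 Tol value lay among the WT values. In cerebrum the genes were Mafg at -0.27 ± 0.06, Txnip at -0.38 ± 0.10, the ferritin gene Ftl1 at -0.22 ± 0.06, the transferase gene Gstm1 at -0.18 ± 0.07, the transaldolase gene Taldo1 at -0.16 ± 0.07, Ugt1a6a at -0.46 ± 0.24 and the copper chaperone gene Ccs at -0.10 ± 0.10, all below 0, with adjusted p from 0.224 to 0.778. In cerebellum they were Keap1 at 0.21 ± 0.09, Gstm2 at 1.20 ± 0.26, Txnip at -0.28 ± 0.17, Nnt at 2.47 ± 0.82, Slc40a1 at 0.50 ± 0.16, the exporter gene Abcc5 at -0.21 ± 0.11 and Sod1 at 0.22 ± 0.22, each with an adjusted p of 0.957. Without the library labelled cerebellum Tol 2 these values were 0.19 ± 0.13, 1.11 ± 0.36, -0.52 ± 0.17, 0.11 ± 0.67, 0.26 ± 0.17, -0.30 ± 0.14 and -0.12 ± 0.21, in the same order, with adjusted p from 0.979 to 0.991. Nnt in that library was at 6.73 CPM, against 0.386 to 1.004 in the other 5 cerebella. The same rule for the difference of the Tol effect, cerebrum minus thymus, gave Txn1, thioredoxin itself, at -0.50 ± 0.12, Btrc at -0.32 ± 0.08, Abcb6 at -0.48 ± 0.13, Taldo1 at -0.29 ± 0.10, Gpx4 at -0.36 ± 0.13, Sod1 at -0.27 ± 0.10 and Esd at -0.34 ± 0.13, with adjusted p from 0.104 to 0.205.

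Variation from library to library was then compared between genes. After the mean of each organ was removed from log2(CPM + 1), Pearson's r over the 22 libraries between pairs of members had a median of 0.03 over 45 pairs, a description of libraries that share organs and scaling. Of these, Gclm with Gsr alone was above 0.5, at 0.62, and Gsr with Slc7a11 at -0.69 and Prdx1 with Gclc at -0.53 were below -0.5. The 22 libraries include the library labelled cerebellum Tol 2. Among the cerebella it was the lowest in Gclm, at 75.1 CPM, and in Gsr, at 20.4, and the highest in Slc7a11, at 103. No r here, for pairs of members or for the most alike genes, was computed without that library. Nfe2l2 itself ranged from -0.40, with Srxn1, to 0.26, with Nqo1. Among 14086 genes counted in all 3 organs, the 2 most like each member by the same measure were Heca (r = 0.817) and Aldh9a1 (r = 0.807) for Nfe2l2, Echdc3 (r = 0.799) and Tbc1d12 (r = 0.786) for Nqo1, Tpi1 (r = 0.813) and Ube2l3 (r = 0.802) for Hmox1, Pdpk1 (r = 0.862) and Ank3 (r = 0.853) for Gclc and Oxct1 (r = 0.853) and Azin1 (r = 0.837) for Gclm. For Txnrd1 they were Eif3b (r = 0.836) and Lrrc1 (r = 0.764), for Srxn1 Rcan1 (r = 0.911) and Cep83 (r = 0.884), for Slc7a11 Grin3a (r = 0.882) and Igsf3 (r = 0.867), for Gsr Ppp1cc (r = 0.933) and Wscd2 (r = 0.930) and for Prdx1 Tpt1 (r = 0.941) and Sptssa (r = 0.924). No member was among the 2 most like another member.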

How the data were processed

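RNA of the 22 libraries was prepared with a stranded poly(A) kit and read as single ends of 65 bases. The authors deposited estimated counts per gene, 1 column a library, which the submitters' notes credit to Salmon 0.14.1 on GRCm38 with edgeR 3.9 also listed. How strand entered the counting is not given in the sources used here. The expected counts were whole numbers and were used as deposited, without authors' normalization. Each comparison was fitted across all genes with edgeR 4.0.16 (R 4.3.3): filterByExpr, TMM scaling, quasi-likelihood test, Benjamini-Hochberg adjustment. Each organ had its own fit, the difference of the Tol effects 1 fit of 16 thymus and cerebrum libraries, and the organ contrasts 1 fit of the 12 WT libraries. The standard error is the log2 difference divided by the square root of F. The fits were tested on simulated data. DESeq2 1.42.0, other filters, a replicate block and omission of each library were alternatives. The row of the transgene transcript was left out of gene counts. Shared 65-base windows were counted over all annotated transcripts. Python 3.11.15 with pandas 2.3.3 and scipy 1.17.1 made the summaries.

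The 10 genes, the pathway lists and the marker lists were chosen with earlier results of these data known. The text names all 10 genes, in each pathway list the gene with the lowest p between genotypes, the gene with the largest difference in each direction between organs, and the 2 genes most like each member. Totals of 14543698 to 34776973 counts (median 21577753.5) set the precision. No pair of libraries of a group agreed within sampling noise, with chi-square per degree of freedom of 4.98 to 208 over 31 pairs.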

Additional observations from a re-analysis of the deposited data

Results flagged for a closer look

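In groups of 4 libraries, the highest or lowest value stood apart from the nearest other by Dixon's test in 7 of 79 sets of values, where chance gives about 3.95. Prdx1 in cerebrum Tol 4 was at 118 CPM, with the nearest Tol cerebrum at 99.7. Txnrd1 in cerebrum WT 3 was at 75.1 CPM, with the nearest WT cerebrum at 58.6, and the same library had the lowest ratio of Gclm to Gclc counts of the WT cerebra, 1.05 against 1.17. Txnrd1 in cerebellum WT 2 was at 68.6 CPM, with the nearest WT cerebellum at 63.8. Forebrain markers in cerebellum WT 1 summed to 316.5 CPM, against 124 in the next WT cerebellum. In cerebellum WT 2 the markers of macrophages and microglia summed to 132 CPM, against 89.4, and those of oligodendrocytes to 17597 CPM, against 7314.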

How the results depend on the processing

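The counts of the 10 genes past the threshold changed little in most settings. Between Tol and WT they were 0 in every organ and in the difference between organs with DESeq2 size factors, DESeq2, other count filters, robust moderation and, within organs, 1 fit of all 22 libraries. Leaving out 1 library gave 0 to 2 in thymus and 0 to 1 for the difference of the Tol effects, the higher number in both cases without thymus Tol 1, and 8 to 9, 9 to 10 and 5 to 6 between WT organs. Over all genes those WT fits called 14442 to 15087, 14267 to 14900 and 8043 to 9401, of 17578 to 17875 tested. The replicate number as a block gave 0 in every Tol comparison and 9, 10 and 5 between WT organs, where 14629, 14447 and 8672 of 17413 genes passed. The replicate numbers were not taken to pair the libraries, since the deviations of same-numbered Tol and WT libraries correlated at -0.18 to 0.07 in thymus, -0.41 to 0.48 in cerebrum and -0.20 and 0.68 in cerebellum, not above 0.1 in every pair. With Tol libraries in place of WT, 10, 9 and 3 of the 10 genes differed, where 15054, 14109 and 4302 of all 18378 entries tested did. The WT fits called 14683, 14546 and 8892 of 17413. For cerebrum minus cerebellum in the Tol libraries, where the library labelled cerebellum Tol 2 enters, Hmox1 was -0.29, Srxn1 -0.028 and Slc7a11 -0.25. Over all genes the thymus count of 16 was 130 with no filter, 85 with at least 10 counts in every library, 38 with robust moderation, 5 with the block, 29 in 1 fit of all libraries, 1267 with DESeq2 and 0 to 2978 with 1 library left out. That of cerebrum was 0, and 25 in 1 fit and 184 with DESeq2, and that of cerebellum 0 and 10 with DESeq2. The difference of the Tol effects had 19, and 4 with the block and 495 with DESeq2. Other log2 values that changed sign were near 0: Gclm in cerebrum at -0.0011 with DESeq2, -0.0098 with no filter and -0.0006 in 1 fit, Gsr in cerebrum at -0.0079 with no filter, Srxn1 in cerebellum at -0.0196 with the block, and, for WT cerebrum minus cerebellum, Prdx1 at 0.0212 with DESeq2 size factors, 0.0212 with DESeq2 and 0.0035 with no filter. Without cerebrum WT 3, cerebellum WT 2 and cerebellum WT 4, a setting chosen after seeing the data, Srxn1 was at -0.0336 and Prdx1 at 0.17. Per length of the longest transcript, the fold between the highest and the lowest of the 10 genes was 24.3 in WT thymus and 23.1 in WT cerebrum, and the order of the genes also changed. With 1 library left out, values that changed sign ranged as follows. For thymus, Tol minus WT, Nfe2l2 -0.0387 to 0.0031, Hmox1 -0.18 to 0.0905 and Txnrd1 -0.0129 to 0.0672. For cerebrum, Tol minus WT, Gclm -0.0319 to 0.0354, Srxn1 -0.0599 to 0.11, Slc7a11 -0.26 to 0.0428 and Gsr -0.0495 to 0.10. For cerebellum, Tol minus WT, Gclc -0.0723 to 0.0378, Gclm -0.37 to 0.0996, Srxn1 -0.11 to 0.29, Gsr -0.62 to 0.0256 and Prdx1 -0.12 to 0.0364. For the Tol effect in cerebrum minus thymus, Nqo1 -0.15 to 0.0862, Hmox1 -0.21 to 0.0622 and Gsr -0.16 to 0.0173. For WT cerebrum minus cerebellum, Hmox1 -0.0236 to 0.19, Srxn1 -0.0506 to 0.13 and Prdx1 -0.0862 to 0.0696. The cause of these changes was not tested. The lowest counts, 35 for Hmox1 and 39 for Nqo1, limit the precision of these genes.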

Other observations

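Nnt, which encodes the mitochondrial enzyme that makes NADPH from NADH and is known to be truncated in C57BL/6J mice, varied widely within groups. In cerebrum it was at 3.79, 0.707, 5.40 and 1.98 CPM in WT 1 to 4 and at 2.57, 0.642, 5.52 and 1.79 in Tol 1 to 4, so that libraries with the same number stood in the same order in both genotypes. In thymus it was at 15.7, 14.3, 4.55 and 13.3 CPM in WT 1 to 4 and 14.7, 12.8, 12.2 and 17.2 in Tol 1 to 4, and WT 3 lay below the other 7. In cerebellum the WT libraries had 0.503, 0.871, 0.386 and 1.004 CPM and the Tol libraries 0.742 and 6.73, the last being the library labelled cerebellum Tol 2. The substrain of each mouse is not given in the labels, and this gene was singled out after its values were seen. Its values are those of ENSMUSG00000025453 alone, 1 of 2 entries with the symbol Nnt, so that the other entry is not included.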
